A study of Mus musculus with 2 samples.

Results

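The genes described here were Ly6a, Ly6c1, Ly6c2, Ly6e, Ly6d and Thy1, which encode small glycoproteins of the lymphocyte surface. They were chosen by their symbols, and these 6 of the 27998 genes listed were followed in both libraries. RNA of single γδ T cells was counted in 1 library from the liver and 1 library from the thymus of untreated wild-type C57BL/6J mice aged 8 weeks. Cells of both tissues were sorted as CD3e+ γδTCR+, and the thymic cells were first depleted of CD4+ and CD8+ cells with magnetic beads. Cells of several mice went into a library and no label ties a cell to an animal, so each tissue was 1 sample and no difference between cells or tissues has a replicate check.

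Ly6 proteins share a compact fold held together by disulfide bonds and sit on the outer leaflet of the membrane through a glycosylphosphatidylinositol (GPI) anchor. Ly6a encodes Sca-1, a marker of mouse hematopoietic stem cells that also appears on activated T cells and responds to interferon. Ly6c1 and Ly6c2 encode the Ly-6C antigens, used to mark inflammatory monocytes and memory T cells. Ly6e is known in thymocytes as thymic shared antigen 1, Ly6d marks early lymphoid and B lineage cells, and Thy1 is a GPI-anchored immunoglobulin superfamily protein found on mouse T cells.

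On GRCm38 with the GENCODE vM21 annotation, 5 of the genes lay within 349.9 kb of chromosome 15. Ly6d occupied chr15:74762056-74763620 on the minus strand, and Ly6e occupied chr15:74955051-74959905 on the plus strand. Ly6a at chr15:74994877-74998031, Ly6c1 at chr15:75044018-75048830 and Ly6c2 at chr15:75108158-75111970 followed on the minus strand. Thy1 lay apart, at chr9:44043384-44048579 on the plus strand.

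Ly6c1 and Ly6c2 are near copies of each other that had different levels in these cells, so the bases just upstream of both are shown. The RefSeq promoter table (GRCm38.p6) held 2 of the 6 genes. Each line gives 250 bases of the minus strand, read 5′ to 3′ and ending at the base before the furthest upstream transcription start, at chr15:75048838-75049087 for Ly6c1 and chr15:75111972-75112221 for Ly6c2.
Ly6c1: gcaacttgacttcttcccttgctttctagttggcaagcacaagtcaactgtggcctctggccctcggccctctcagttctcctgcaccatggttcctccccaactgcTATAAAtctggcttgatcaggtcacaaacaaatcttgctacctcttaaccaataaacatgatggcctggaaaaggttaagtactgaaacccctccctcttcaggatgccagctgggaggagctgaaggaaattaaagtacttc
Ly6c2: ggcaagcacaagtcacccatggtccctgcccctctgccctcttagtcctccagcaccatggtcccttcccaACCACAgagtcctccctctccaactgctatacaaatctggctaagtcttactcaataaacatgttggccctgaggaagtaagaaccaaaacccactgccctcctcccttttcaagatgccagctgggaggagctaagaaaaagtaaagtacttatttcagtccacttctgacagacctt
Capitals mark the matches to 5 motifs searched on both strands. They were a GAS element (TTCNNNGAA, found in 7.02% of 32851 windows of this length), an interferon-stimulated element (AANNGAAA, 21.3%), a T-box motif (TCACACC, 3.33%), a Runx motif (TGTGGT, 14.05%) and a TATA box (TATAAA, 12.4%). The Ly6c1 window held TATAAA, and the Ly6c2 window held TGTGGT on its reverse strand. In a global alignment, 171 of 210 aligned bases were identical (81.4%). A match describes the letters only.

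The likeness of the copies reached the transcripts. Of the windows of 90 bases in the last 500 bases of the Ly6c2 transcripts, 134 of 696 (19.3%) also occurred in Ly6c1, and 228 of 1652 (13.8%) of the Ly6c1 windows occurred in another gene, 199 of them in Ly6c2 and 29 in Ly6a. No window from the ends of the Ly6e, Ly6d or Thy1 transcripts occurred in another gene. The last 500 bases of Ly6a held no shared window either, so its match with Ly6c1 lay further from the end of its transcripts. Reads from the shared stretches cannot be told apart, so the levels of Ly6c1, Ly6c2 and Ly6a are uncertain to that extent.

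After the limits of 800 to 4000 genes and at most 6% mitochondrial UMIs per cell, 4351 thymic cells with 17064752 UMIs (unique molecular identifiers, each standing for 1 captured RNA molecule) and 8075 hepatic cells with 24168037 UMIs remained. The median was 3271 UMIs in a thymic cell and 2741 in a hepatic cell, and 60 barcodes occurred in both libraries. Clustering without any of these genes among the variable genes gave 12 clusters, which were named after the study's populations where their markers allowed it. Levels were expressed as CPM, UMIs of the gene per 1000000 UMIs of all genes in a group of cells, with exact Poisson 95% intervals. Every cell was thinned to 1500 UMIs before cells with a UMI were counted, the resulting shares have exact binomial 95% intervals, and ratios carry exact conditional intervals. All of these cover counting error only. A gene was called higher or lower where its CPM differed at least 2-fold and the groups compared had 50 or more UMIs of it in sum.

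The thymic cells fell into 2 C1-like clusters with Sox4, Ccr9 and Hes1 (1233 and 1215 cells), a cell cycle gene cluster (530 cells), a cluster led by S1pr1, Cd200 and Ccr7 (1011 cells), C3-like cells with Nt5e and Dapl1 (183 cells) and C6-like cells with Il17a and Il17f (164 cells). Cd24a, a marker of immature thymocytes, was at 973 CPM in C1-like cluster 3, 471 CPM in C1-like cluster 4, 221 CPM in the S1pr1 cluster and 53.7 CPM in C3-like cells. The hepatic cells were C5-like with Gzmb and Tyrobp (2974 cells), C4-like with Cd28, Cd40lg and Il4 (2649 cells), C3-like (1113 cells), C6-like (793 cells), C7-like with Klrg1 and S1pr5 (274 cells), and C8-like with the myeloid genes Lyz2 and C1qa (105 cells). Smaller hepatic groups were an interferon gene cluster (69 cells), a cell cycle gene cluster (42 cells) and the S1pr1 cluster (37 cells). The S1pr1 cluster scored highest for the C2 markers, at 1.57 against 0.607 for the next class, and all 6 of these markers were detected. It was left without the C2 name because 3 hemoglobin genes were among its 10 leading genes. Cd3e stood at 196 CPM in C8-like cells, against 577 CPM or more in the other hepatic groups.

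**Figure D1:**
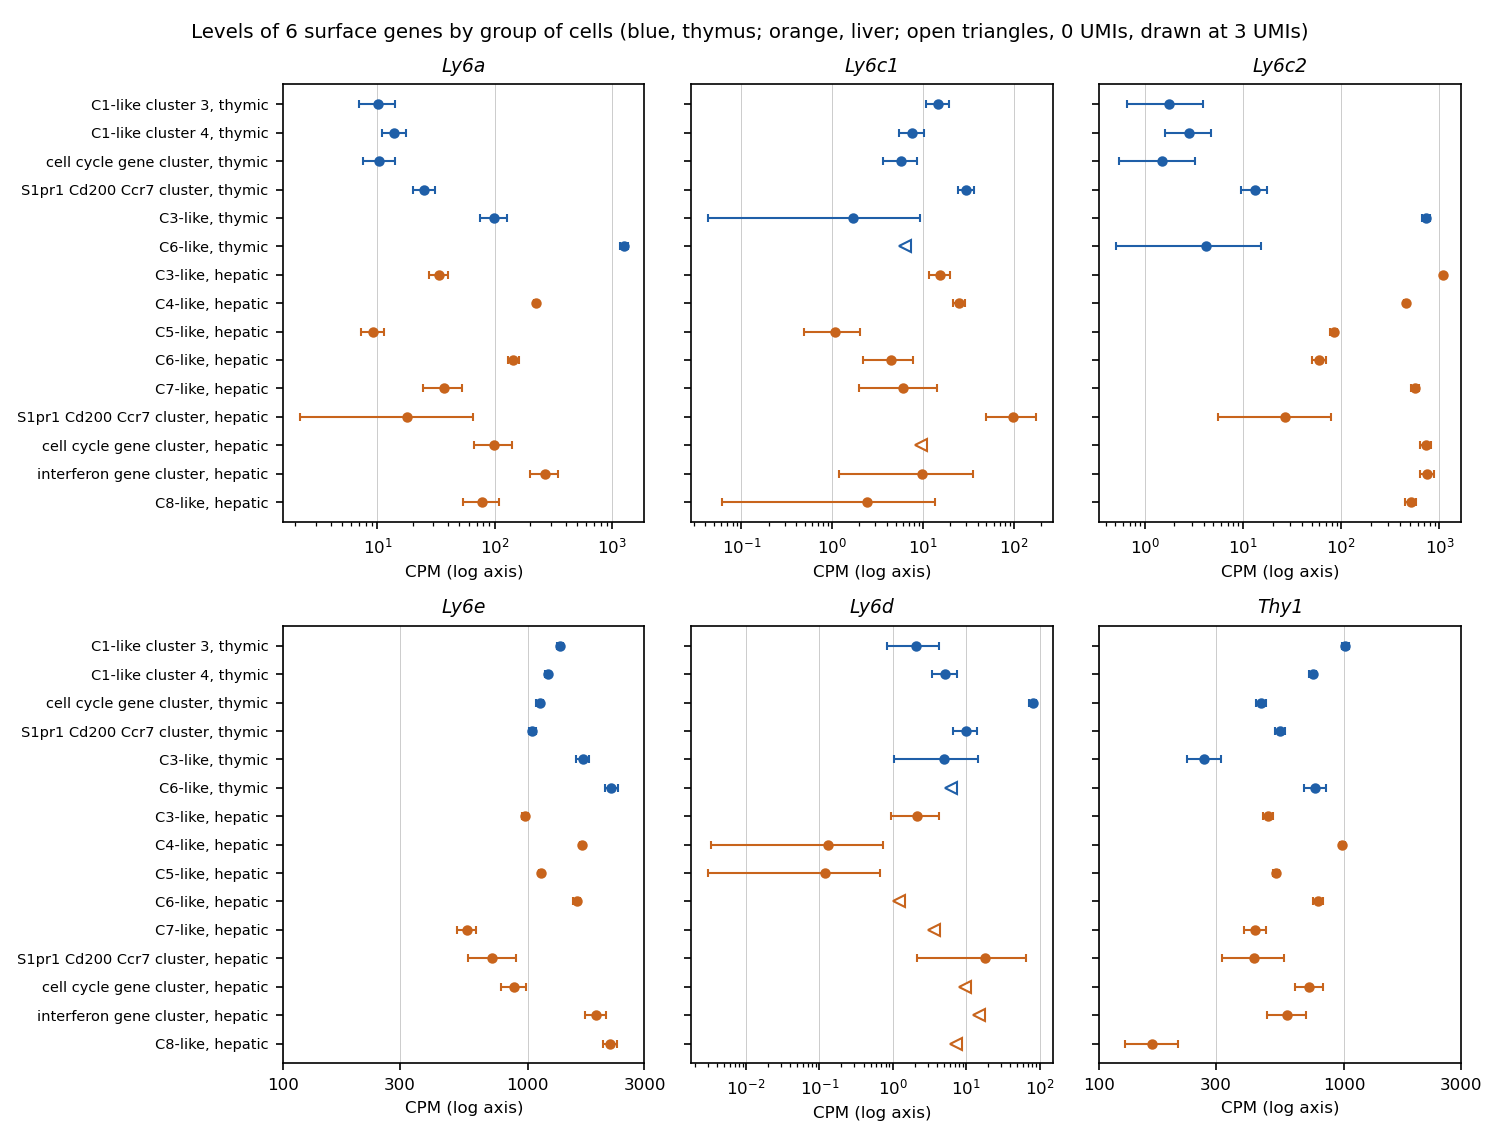
Level of each gene (x axis, CPM on a log axis, scaled separately for each gene) in 15 groups of cells (y axis); blue points are thymic groups, orange points hepatic groups, bars the exact Poisson 95% intervals, and open triangles groups with 0 UMIs drawn at 3 UMIs. Ly6a peaked in thymic C6-like cells at 1259 CPM, Ly6c2 in hepatic C3-like cells at 1084 CPM and Ly6d in the thymic cell cycle gene cluster at 80.4 CPM.

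Ly6a was low through the immature thymic groups and high in thymic C6-like cells. It stood at 10.1 CPM (7.003 to 14.1) in C1-like cluster 3, 13.9 CPM (10.9 to 17.5) in C1-like cluster 4 and 10.4 CPM (7.49 to 14.1) in the cell cycle gene cluster. The intervals of these 3 groups overlapped. The level was 25.1 CPM (19.98 to 31.2) in the S1pr1 cluster and 98.9 CPM (75.3 to 128) in C3-like cells. In C6-like cells it reached 1259 CPM (1160.5 to 1364), and 59.1% of the thinned cells (51.2 to 66.7) had a Ly6a UMI against 1.55% (1.10 to 2.13) of the C1-like cells. These 164 C6-like cells held 66.9% of all thymic Ly6a UMIs.

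In the liver the C4-like cells carried most Ly6a. They held 70.6% of the hepatic Ly6a UMIs at 225 CPM (214 to 235), and C6-like cells stood at 144 CPM (129 to 159). C5-like cells, the largest hepatic group, had 9.14 CPM (7.21 to 11.4), with a Ly6a UMI in 1.35% of thinned cells (0.963 to 1.83). C3-like cells at 33.4 CPM (27.7 to 39.8) and C7-like cells at 36.6 CPM (24.7 to 52.2) did not differ beyond their intervals. The highest hepatic level, 266 CPM (199.5 to 347), was that of the interferon gene cluster, whose interval overlapped that of C4-like cells.

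Ly6c2 had another distribution. In the thymus the C3-like cells held 83.0% of the Ly6c2 UMIs at 734 CPM (667 to 807). C1-like clusters 3 and 4 had 1.78 CPM (0.655 to 3.88) and 2.85 CPM (1.60 to 4.70), the S1pr1 cluster 13.2 CPM (9.53 to 17.7) and C6-like cells 4.18 CPM (0.506 to 15.1), from 2 UMIs. When the thymus was clustered alone, 166 of the 183 C3-like cells stayed in 1 cluster.

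In the liver, Ly6c2 was present in most groups. C3-like cells had 1084 CPM (1050.2 to 1118), and 51.4% of the thinned cells (48.4 to 54.4) had a UMI. The interferon gene cluster had 748 CPM (633 to 876) and the cell cycle gene cluster 722 CPM (631 to 823), where 1 of the 42 cells held 46 of its 227 UMIs. The level was 567 CPM (517 to 621) in C7-like, 509 CPM (443 to 583) in C8-like and 453 CPM (438 to 468) in C4-like cells. In the C8-like group, up to 35 of the 210 UMIs lay in a single cell. Before thinning, 19.0% of C8-like cells had a Ly6c2 UMI, against 42.3% of C7-like and 38.7% of C4-like cells. The Ly6c2 level was lower in C5-like cells at 83.7 CPM (77.6 to 90.1) and in C6-like cells at 59.5 CPM (50.3 to 69.9). C3-like and C4-like cells together held most hepatic Ly6c2 UMIs, 42.6% and 36.9% of them. The C6-like level moved to 36.1 CPM when the cells with the highest doublet scores were removed.

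Ly6c1, next to Ly6c2 on the chromosome, was sparse in these libraries. Thymic levels were 14.6 CPM (10.8 to 19.3) in C1-like cluster 3, 7.61 CPM (5.43 to 10.4) in C1-like cluster 4 and 30.03 CPM (24.4 to 36.6) in the S1pr1 cluster. Thymic C3-like cells had 1 Ly6c1 UMI beside 438 Ly6c2 UMIs. Thymic C6-like cells had 0 Ly6c1 UMIs. A count of 0 was given a limit of 3 UMIs throughout, which is 6.26 CPM in these cells. In the liver, C4-like cells at 24.9 CPM (21.5 to 28.7) held 66.4% of the Ly6c1 UMIs, C3-like cells had 15.5 CPM (11.7 to 20.04) and C5-like cells 1.07 CPM (0.489 to 2.03). The 37 hepatic cells of the S1pr1 cluster had 98.5 CPM (49.2 to 176) from 11 UMIs, a value that moved to 27.6 CPM with 20 principal components.

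Ly6e was detected in most cells of every group but varied less. The thymic levels ran from 1045 CPM (1010.3 to 1081) in the S1pr1 cluster to 2196 CPM (2066 to 2333) in C6-like cells. The hepatic levels ran from 563 CPM (513 to 617) in C7-like to 2168 CPM (2028 to 2315) in C8-like cells. C4-like cells at 1671 CPM and C6-like cells at 1585 CPM lay above C5-like cells at 1134 CPM and C3-like cells at 975 CPM, and these 4 intervals were disjoint. Among the thymic groups, C6-like cells thus had the highest level of both Ly6e and Ly6a. But C8-like cells combined the highest hepatic Ly6e level with 77.6 CPM of Ly6a. The hepatic cell cycle gene cluster had 878 CPM of Ly6e with 98.6 CPM of Ly6a.

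In the thymus, Ly6d was found mainly in the cell cycle gene cluster. The thymic cell cycle gene cluster had 80.4 CPM (71.9 to 89.7) and held 81.5% of the thymic Ly6d UMIs, with up to 24 UMIs in a cell. The level was 9.80 CPM (6.71 to 13.8) in the S1pr1 cluster, 5.13 CPM (3.38 to 7.47) in C1-like cluster 4 and 2.08 CPM (0.837 to 4.29) in C1-like cluster 3. In the liver, 50 of 62 Ly6d UMIs (80.6%) came from 14 cells of a B cell gene cluster, of which 12 had a UMI. The C4-like and C5-like cells had 1 Ly6d UMI each. The 42 hepatic cells of the cell cycle gene cluster had 0, where the limit of 3 UMIs is 9.55 CPM, and C6-like cells had 0 in both tissues. Cells of the thymic cell cycle gene cluster were deep, with a median of 7098.5 UMIs, and after thinning 8.30% (6.10 to 10.98) of them still had a Ly6d UMI against 0.532% (0.283 to 0.908) of the C1-like cells.

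Thy1 was highest in thymic C1-like cluster 3 and in hepatic C4-like cells. C1-like cluster 3 had 1015 CPM (981 to 1049), C1-like cluster 4 745 CPM (722 to 769), the S1pr1 cluster 547 CPM (522 to 573), the cell cycle gene cluster 459 CPM (438 to 480.02) and C3-like cells 268 CPM (228 to 313). Thymic C6-like cells at 764 CPM (688 to 847) did not differ beyond the intervals from C1-like cluster 4. In the liver, C4-like cells had 985 CPM (963 to 1008), C6-like 785 CPM (750.5 to 820.3), C5-like 528 CPM (512 to 543), C3-like 488 CPM (465 to 511) and C7-like 434 CPM (390.2 to 482). C8-like cells, led by myeloid genes but sorted as CD3e+ like the rest, had 165 CPM (128 to 209) and a Thy1 UMI in 17.1% (10.5 to 25.7) of thinned cells, at a median depth of 3069 UMIs per cell. Of the C5-like cells, 47.8% (46.0 to 49.6) had a Thy1 UMI.

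Set over all cells, the liver had 12.5 times the thymic Ly6c2 level (11.5 to 13.7), at 387 against 30.9 CPM. Ly6d was lower in the liver, at 2.57 against 23.4 CPM (ratio 0.110, 0.0826 to 0.144), and 50 of its 62 hepatic UMIs were those of the B cell gene cluster. Without the cells of that cluster, an alternative chosen after seeing the data, Ly6d was at 0.497 against 23.1 CPM (ratio 0.0215, 0.0110 to 0.0380). The mean of the cells' own CPM, with the cluster kept, gave a ratio of 0.221. Ly6c2 was the 1 gene of 6 called higher and Ly6d the 1 called lower, where 12.1% of all 10869 genes tested were called higher and 16.9% lower. Ly6a was at 100.3 against 52.9 CPM (ratio 1.90, 1.76 to 2.05). Ly6c1 (0.957, 0.798 to 1.15) and Thy1 (1.02, 0.992 to 1.04) had intervals that held 1, and Ly6e was at 1.08 (1.06 to 1.10), a ratio that turned to 0.972 when totals left out mitochondrial and ribosomal-protein genes.

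Within groups found in both tissues the ratios took other values. Ly6a was lower in the liver in C3-like cells (0.337, 0.245 to 0.468) and C6-like cells (0.114, 0.0999 to 0.130), and higher in the cell cycle gene cluster (9.49, 5.77 to 15.5), from 31 hepatic and 42 thymic UMIs. The tissues therefore stood in opposite orders in different groups. The cell cycle gene cluster was named by cell cycle genes and not by a cell type. Whether its 530 thymic and 42 hepatic cells were of the same types was not tested. Ly6e was lower in the liver in all 4 groups compared, at ratios of 0.580 in C3-like, 0.722 in C6-like, 0.785 in cell cycle and 0.686 in S1pr1 cluster cells, while over all cells it was 1.08. Ly6c2 was higher in the liver in C3-like cells (1.48, 1.34 to 1.63), in C6-like cells (14.3, 3.88 to 119, on 149 against 2 UMIs) and in the cell cycle gene cluster (486, 220.02 to 1339, on 227 against 6 UMIs). In the S1pr1 cluster its interval held 1 (2.04, 0.405 to 6.37). The hepatic C6-like level of Ly6c2 fell without the highest doublet scores, as given above, and its tissue ratio was not recomputed there. Thy1 was higher in hepatic C3-like cells (1.82, 1.55 to 2.15) and in the hepatic cell cycle gene cluster (1.57, 1.37 to 1.81). It was close to equal in C6-like cells (1.03, 0.918 to 1.15), and in the S1pr1 cluster its interval held 1 (0.787, 0.578 to 1.05). Differences under 2-fold, such as those of Ly6c2 and Thy1 in C3-like cells, were not calls.

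**Figure D2:**
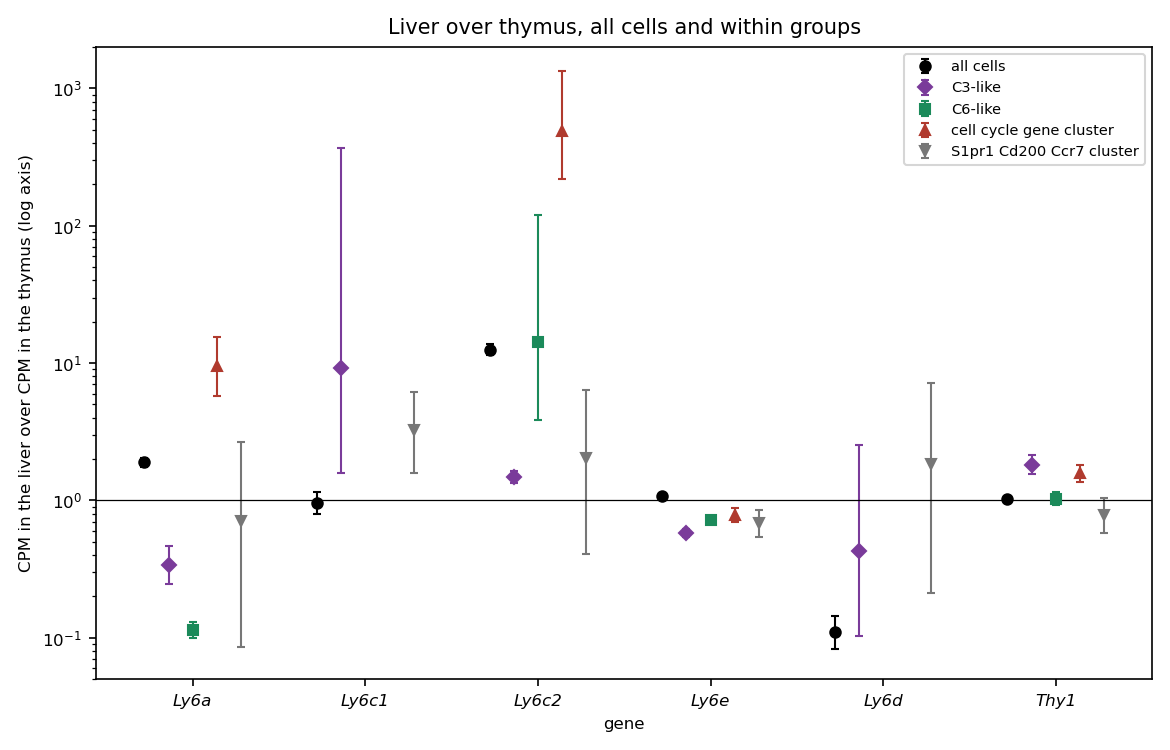
Ratio of the hepatic to the thymic level (y axis, CPM over CPM on a log axis) for each of the 6 genes (x axis), over all cells and within 4 groups found in both tissues; bars are exact conditional 95% intervals, and ratios with 0 UMIs on a side are not drawn. Ly6a lay at 1.90 over all cells, at 0.114 in C6-like cells and at 9.49 in the cell cycle gene cluster.

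In C6-like cells, Ly6a was 8.76 times as high in the thymus as in the liver (7.67 to 10.0) and Ly6c2 was lower there (0.0702, 0.00842 to 0.258). Among 4 members tested, 1 was called higher and 1 lower, against 2.16% and 6.50% of the 5231 genes tested. Thy1 and Ly6e differed by less than 2-fold, at 764 against 785 CPM for Thy1. Ccl5 and Ifng, effector genes, were at 20.9 against 2132 CPM and 2.09 against 155 CPM in the same comparison.

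In C3-like cells, hepatic over thymic Ly6c2 was 1.48 (1.34 to 1.63). Ly6a was called lower in the liver and Ly6c1 higher, the latter on 57 against 1 UMIs with a ratio of 9.23 (1.59 to 371). Those were 1 of 5 members tested in each direction, beside 5.18% of 5889 genes higher and 3.89% lower.

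Along the thymic groups, 4 of 6 members were called higher in the S1pr1 cluster than in the C1-like cells pooled, where 3.83% of 8755 genes were higher and 3.55% lower. Ly6c2 was 5.41 times as high (3.14 to 9.60), Ly6c1 2.91 times (2.16 to 3.92), Ly6d 2.49 times (1.49 to 4.15) and Ly6a 2.02 times (1.4995 to 2.72). Thy1 had a ratio of 0.643 (0.610 to 0.677) and Ly6e had 0.828 (0.797 to 0.861). Of 33 other interferon-induced genes tested, 19 were called higher in the S1pr1 cluster and 0 lower, with a median log2 ratio of 1.29 against 0.02 over all genes tested. Ifi27l2a, an example, was at 323 against 17.9 CPM.

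The thymic cells were also ordered by Cd24a UMIs alone, without clusters, after thinning. At 0, 1, 2 to 3 and 4 or more Cd24a UMIs (2513, 1015, 609 and 207 cells), Ly6a was at 95.8, 19.0, 7.66 and 12.9 CPM. Ly6c2 was at 61.5, 7.22, 4.38 and 3.22 CPM in the same order. Both genes were thus highest in the cells without a Cd24a UMI, whereas Thy1 was at 684, 742, 882 and 886 CPM. The C6-like cells, with 66.9% of the thymic Ly6a UMIs, were not taken out of these bins. Neither were the C3-like cells, with 83.0% of the thymic Ly6c2 UMIs. Whether either gene changed with Cd24a in the remaining thymic cells cannot be read from these values.

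Between thymic C3-like and C6-like cells, Ly6a and Ly6c2 stood in opposite orders. Ly6c2 was 176 times as high in C3-like cells (48.4 to 1457, on 438 against 2 UMIs), and Ly6a had a ratio of 0.0786 (0.0591 to 0.103) and Thy1 had 0.351 (0.290 to 0.424). Of 4 members tested, 1 was called higher and 2 lower, against 4.36% and 9.42% of 2570 genes. The same order held in the liver, where Ly6c2 was 18.2 times as high in C3-like as in C6-like cells (15.5 to 21.6) and Ly6a had a ratio of 0.232 (0.188 to 0.286). There Ly6c1 was also called higher (3.52, 1.83 to 7.45), making 2 of 5 higher and 1 lower, against 3.70% and 8.37% of 7021 genes. The hepatic Ly6c2 ratio moved to 32.9 without the highest doublet scores.

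The thymic cell cycle gene cluster differed from the C1-like cells mainly in Ly6d, at 20.4 times the level (14.3 to 29.97). Before thinning, 102 of its 530 cells had a Ly6d UMI. Ly6d was the 1 of 5 members tested that was called, where 8.84% of 8918 genes were higher and 8.43% lower. Thy1 had a ratio of 0.540 (0.512 to 0.568). At a resolution of 0.8 the cell cycle gene cluster held 122 thymic cells, and 409 and 123 thymic cells lay in clusters that received no name. At that resolution 2447 thymic cells were C1-like and 888 lay in the S1pr1 cluster, against 2448 and 1011 at 0.6. How many of the cells without a name came from the 530 cells was not traced. No Ly6d level was taken for the clusters without a name.

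In the liver, C4-like cells exceeded C5-like cells in each of the 5 members tested. Ly6a was 24.6 times as high (19.5 to 31.3), Ly6c1 23.3 times (12.03 to 51.8) and Ly6c2 5.41 times (4.99 to 5.88), the 3 of 5 that were called, beside 2.56% of 8933 genes higher and 2.55% lower. Thy1 was at a ratio of 1.87 (1.80 to 1.94) and Ly6e at 1.47 (1.43 to 1.51). With a cluster resolution of 0.8 the Ly6a ratio was 12.4, and the C5-like level of Ly6a was then 23.6 CPM.

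C3-like and C7-like cells, compared with the same C5-like cells, also had more Ly6c2. The ratio was 12.9 (11.9 to 14.05) in C3-like cells, with 8.37 at resolution 0.8, and 6.78 (6.01 to 7.63) in C7-like cells, with 4.18 at that resolution. In C3-like cells 3 of 5 members were called higher, with Ly6a at 3.65 times (2.73 to 4.92) and Ly6c1 at 14.5 times (7.12 to 33.3), against 3.46% of 8467 genes higher and 7.81% lower. In C7-like cells Ly6a was 4.00 times as high (2.53 to 6.18) and Ly6e was called lower (0.497, 0.452 to 0.546). That made 2 of 4 higher and 1 lower, against 3.15% and 7.76% of 7980 genes.

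The interferon gene cluster was compared with all other hepatic cells after its values had been seen. Ly6a was 2.68 times as high there (2.01 to 3.51), Ly6c2 1.95 times (1.65 to 2.28) and Ly6e 1.43 times (1.29 to 1.58), and Thy1 had a ratio of 0.852 (0.706 to 1.02). Ly6a was the 1 of 6 called higher, where 7.23% of 9801 genes were higher. Ly6d, with 0 UMIs among 69 cells, counted as lower, as did 23.7% of genes, but its limit of 3 UMIs, 14.8 CPM, lay above the 2.59 CPM of the other cells. The Ly6a level of this cluster moved from 266 to 492 CPM at a resolution of 0.4.

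The balance of Ly6a and Ly6c2 was described by the share of Ly6c2 among the UMIs of both genes. It was 0.331% (0.0401 to 1.19) in thymic C6-like, 16.4% (10.5 to 23.98) in C1-like, 34.4% (26.1 to 43.4) in S1pr1 cluster and 88.1% (85.0 to 90.8) in C3-like thymic cells. Among hepatic cells, C6-like cells had 29.3% (25.4 to 33.4) and C4-like cells 66.9% (65.6 to 68.1). The share was 90.2% (87.8 to 92.2) for C5-like, 93.9% (91.5 to 95.9) for C7-like and 97.0% (96.4 to 97.5) for C3-like cells. C6-like cells had the lowest share in each tissue, and C3-like cells the highest share among the thymic groups and among the hepatic groups.

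**Figure D3:**
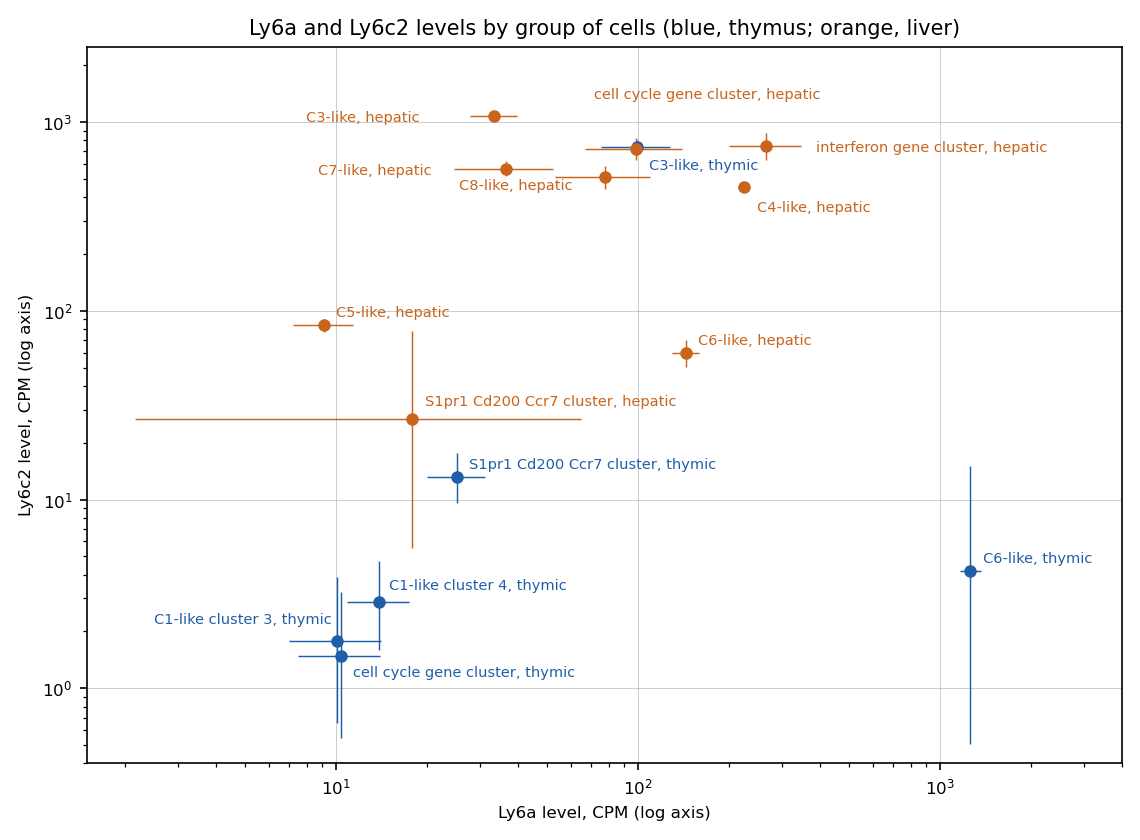
Ly6a level (x axis, CPM, log axis) against Ly6c2 level (y axis, CPM, log axis) in 15 groups of cells; blue points are thymic and orange points hepatic groups, with exact Poisson 95% intervals. Thymic C6-like cells lay at high Ly6a and low Ly6c2, hepatic C3-like cells at the reverse, and hepatic C4-like cells had both, at 225 and 453 CPM.

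The same pair was then counted in single cells. Over all thinned hepatic cells, 254 had both genes against 202 expected from the separate shares, a ratio of 1.26. Ly6c2 was found in 28.4% (25.5 to 31.5) of the cells with Ly6a and in 21.9% (21.0 to 22.9) of the rest. Between Ly6a and 3171 genes in the same cells, 5% of the ratios lay under 0.772 and 5% above 1.26.

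Most of that excess was between groups. With the expected number summed over the groups the ratio was 1.05, and within C4-like cells alone 208 cells had both against 196 expected, with Ly6c2 in 32.7% (29.0 to 36.4) and 30.2% (28.2 to 32.3) of the cells with and without Ly6a. In hepatic C3-like cells the corresponding shares were 47.7% (32.5 to 63.3) and 51.5% (48.5 to 54.6), and in hepatic C6-like cells 4.69% (1.74 to 9.92) and 6.32% (4.59 to 8.44). None of these pairs of intervals was disjoint. In C4-like cells Ly6a and Ly6c2 were not mutually exclusive, as 208 cells had both. In hepatic C3-like and C6-like cells, where 44 and 128 thinned cells had Ly6a, partial exclusion could not be told from independence. Without the highest doublet scores, the ratio in C3-like cells moved from 0.929 to 1.52.

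In the thymus few cells had either gene. Of 4344 thinned cells, 190 had Ly6a, 104 had Ly6c2 and 8 had both, against 4.55 expected. In C3-like cells 5 cells had both against 7.06 expected, and Ly6c2 was in 26.3% (9.15 to 51.2) of the cells with Ly6a and 38.4% (30.9 to 46.3) of the rest. In C6-like cells both cells with Ly6c2 also had Ly6a. The counts were too few to tell exclusion from independence.

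Thy1 and Ly6c2 stood apart in the thymus. Thy1 was found in 36.5% (27.3 to 46.6) of the cells with Ly6c2 and in 60.0% (58.5 to 61.5) of the rest, a ratio of 0.614 to the expected number. Of 3400 genes found in 5% to 95% of these cells and set against Thy1, 0.0294% had a lower ratio. Ly6c2 itself was in 2.39% of the cells, outside that range, so its place among these genes is not like for like. At 0, 1 and 2 or more Ly6c2 UMIs the Thy1 level was 742, 625 and 286 CPM. With the expected number summed over groups the ratio was 1.02, and thymic C3-like cells had Thy1 in 29.4% (19.0 to 41.7) of cells with and 25.2% (17.6 to 34.2) of cells without Ly6c2.

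Over all hepatic cells the same pair was found together more often than expected. Thy1 was in 61.2% (58.9 to 63.4) of the cells with Ly6c2 and 55.2% (54.0 to 56.5) of the rest. Within C5-like cells the shares were 60.0% (53.6 to 66.1) and 46.7% (44.8 to 48.6). The 5 genes with the highest ratio to Thy1 in C5-like cells were Gramd3, Abhd8, Cd28 (1.26), Ly6c2 and Dtx1. Within C4-like cells, Thy1 was in 72.4% (70.3 to 74.5), 72.3% (67.5 to 76.7) and 75.3% (71.0 to 79.4) at 0, 1 and 2 or more Ly6c2 UMIs. Within hepatic C3-like cells these shares were 41.9% (37.7 to 46.1), 41.2% (33.9 to 48.9) and 50.3% (45.2 to 55.3). The intervals overlapped in both groups.

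**Figure D4:**
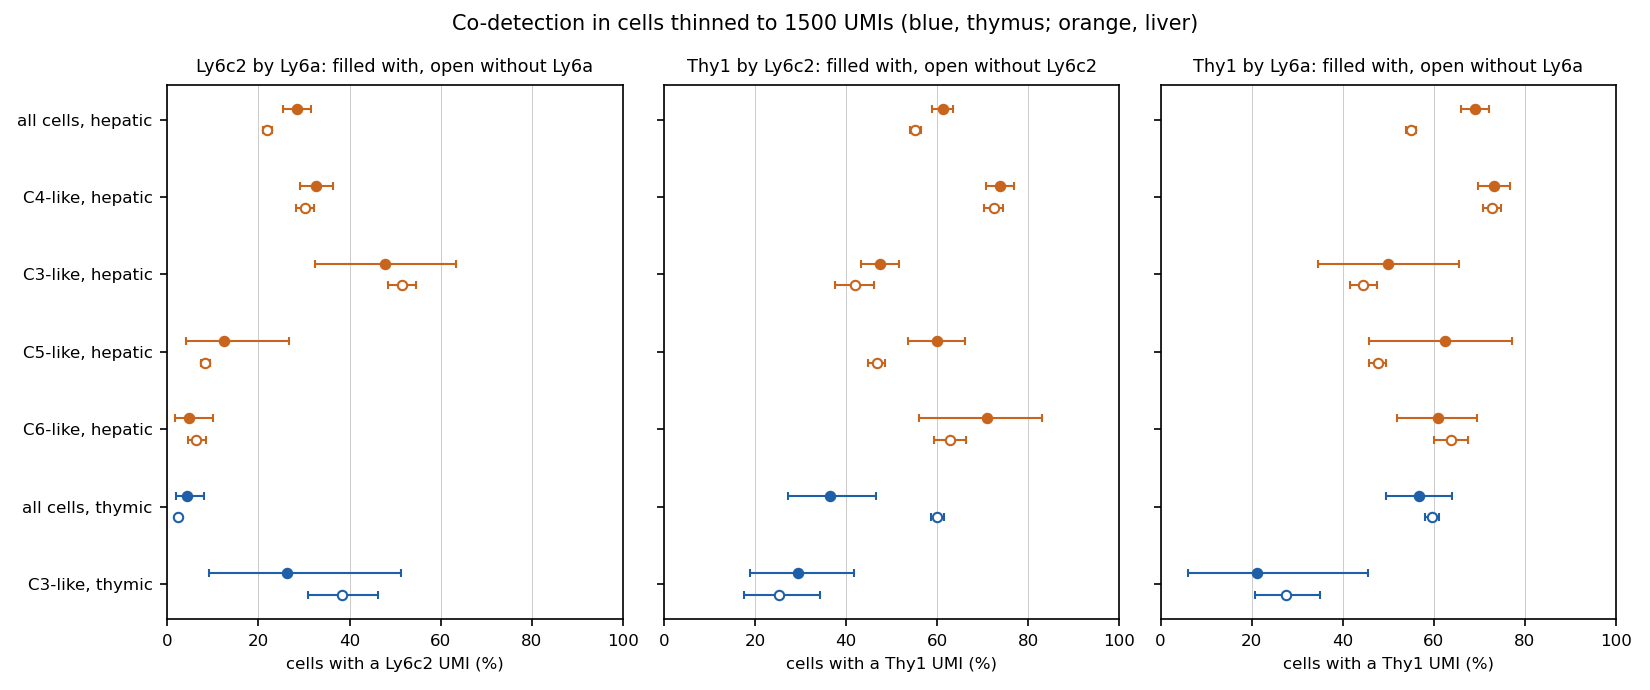
Shares of cells with a UMI of the second gene (x axis, %) among cells with (filled) and without (open) the first gene, for Ly6c2 by Ly6a, Thy1 by Ly6c2 and Thy1 by Ly6a, in 7 groups (y axis) of cells thinned to 1500 UMIs; bars are exact binomial 95% intervals. Thymic cells with Ly6c2 had Thy1 in 36.5% against 60.0% of the rest, and in hepatic C4-like cells the filled and open points lay close together in all 3 panels.

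Ly6c1 was found more often in the hepatic C4-like cells that also had Ly6a. In these cells, Ly6c1 was in 5.97% (4.26 to 8.10) of the cells with Ly6a and 1.79% (1.26 to 2.47) of the rest, on 38 cells with both against 17.8 expected. At 0, 1 and 2 or more Ly6a UMIs, the Ly6c1 level was 13.3 (9.47 to 18.0), 50.6 (35.3 to 70.4) and 49.2 CPM (26.2 to 84.2). Some stretches of the Ly6c1 transcripts also occur in Ly6a, as given above, and their part in this was not tested. In hepatic C3-like cells Ly6c1 was in 2.78% (0.0703 to 14.5) of the 36 cells with 1 Ly6a UMI and 2.16% (1.37 to 3.22) of those with 0, and in hepatic C6-like cells it was in 0 of the 96 cells with 1 and 0 of the 32 cells with 2 or more Ly6a UMIs. In hepatic C3-like cells, Ly6c2 was in 24% (9.36 to 45.1) of the 25 cells with Ly6c1 and 52.0% (49.0 to 55.0) of the rest. In C4-like cells those shares were 27.0% (17.4 to 38.6) and 30.9% (29.1 to 32.7).

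Ly6e was higher in the hepatic C4-like and C6-like cells with more Ly6a UMIs, and in the thymic S1pr1 cluster. In C4-like cells with 0, 1 and 2 or more Ly6a UMIs (2012, 461 and 176 cells), Ly6e was at 1585 CPM (1540.5 to 1631), 1847 CPM (1747 to 1951) and 2106 CPM (1935 to 2289). In hepatic C6-like cells it was at 1487 CPM (1412 to 1564), 1979 CPM (1756 to 2223) and 2479 CPM (2054 to 2967). In hepatic C5-like cells the levels at 0 and 1 Ly6a UMIs, 1127 CPM (1096 to 1159) and 1145 CPM (888 to 1454), overlapped, as did those in hepatic C3-like cells, 967 CPM (919.6 to 1017) and 1167 CPM (896 to 1493). In thymic C6-like cells the values of 2089.6 CPM (1816 to 2392), 2038 CPM (1670.3 to 2463) and 2366 CPM (2063 to 2699.7) overlapped. Thymic S1pr1 cluster cells had 1002 CPM (952 to 1055) at 0 and 2000 CPM (1547 to 2544) at 1 Ly6a UMI, the latter in 22 cells. The pooled C1-like cells had 1278 CPM (1242 to 1316) and 1275 CPM (984 to 1624), which overlapped.

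Other genes went with these genes inside a group, ranked by the ratio of observed to expected co-detection among the genes found in 5% to 95% of the thinned cells of the group, a range that leaves out Ly6c1 in C4-like cells. In C4-like cells, Il4, which encodes a type 2 cytokine, had the highest ratio to Ly6a, in 11.9% of the cells with Ly6a and 4.72% of the rest. Cd8a had the lowest, in 4.24% against 12.1%. In hepatic C3-like cells, the gut-homing receptor gene Ccr9 had the lowest ratio to Ly6c2, in 1.05% of the cells with Ly6c2 and 13.5% of the rest, and Sox4 was in 4.20% against 16.7%. The C3-like cells without a Ly6c2 UMI were thus the ones with more Ccr9 and Sox4. Both were among the markers used to name C1-like cells, whose other markers were not among the 5 lowest ratios. The study also reports higher Sox4 in its C2 and C3 clusters. In the thymic S1pr1 cluster, Ccl5 was in 6.56% of the cells with Thy1 and 22.5% of the rest, and Tnfsf11 in 22.7% against 9.25%.

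Related genes came from lists chosen with earlier results of these data known. Of 6 other Ly6 and uPAR family genes tested between all hepatic and thymic cells, 2 were called higher in the liver and 3 lower. Ly6i, a further Ly6 gene, was at 2.69 against 0.176 CPM, and reached 136 CPM in C8-like cells. Plaur, the urokinase receptor, was at 7.74 against 42.3 CPM. Among 12 other genes of GPI-anchored proteins, 5 were higher and 4 lower, with Cd160 at 732 against 35.8 CPM and Cd24a at 10.0 against 509 CPM. Of 25 genes of GPI synthesis and attachment, 3 were higher and 2 lower, with a median log2 ratio of -0.05 against -0.22 over all genes tested. In C4-like over C5-like cells, 0 of 23 of these were called in either direction.

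Lists of cell state were counted in the same way. Of 16 activation and effector genes, 14 were called higher in the liver and 0 lower, with a median log2 ratio of 3.70, and of 12 naive and recirculation genes 9 were lower and 2 higher, with a median of -1.47. Of 38 interferon-induced genes, 8 were higher and 1 lower, with a median of 0.50. In C4-like over C5-like cells, 6 of 10 naive and recirculation genes were higher, among them Il7r at 122 against 12.5 CPM, and 4 of 16 activation genes were lower, among them Gzma at 519.6 against 4512 CPM. These gene groups differed between the same cells as Ly6a and Ly6c2, and their part in those differences was not tested.

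The genes whose levels were most like those of each member were found by Pearson's r of log2(CPM + 10) over the 15 groups, which share 2 libraries and are not replicates. The 2508 genes with at least 100 CPM in some group were searched, without mitochondrial and ribosomal-protein genes. For Ly6a they were Ccr2 (r = 0.84), Sptssa (0.83) and Il18r1 (0.81), and for Ly6c2 they were Klrd1 (0.89), Xcl1 (0.88) and Tm6sf1 (0.87). Ly6c1 was most like Ifnar1 (0.87), Arhgap15 (0.85) and Chic2 (0.81), and Ly6d most like Tcof1 (0.85), Nrgn (0.85) and Fubp1 (0.83). The highest Ly6c1 level among the 15 groups, 98.5 CPM, came from 11 UMIs in the 37 hepatic cells of the S1pr1 cluster. That level moved when fewer principal components were used, as given above. How far the r values of Ly6c1 rest on this group was not tested. Thy1 was most like D16Ertd472e (0.83), Rcsd1 (0.79) and Grap (0.78), and Ly6e most like Maf (0.73), Cdk2ap2 (0.70) and Lpcat2 (0.69). Among the members themselves, r was 0.61 between Ly6a and Ly6e, 0.28 between Ly6a and Ly6c2 and -0.18 between the copies Ly6c1 and Ly6c2.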

How the data were processed

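The authors sorted CD3e+ γδTCR+ cells from liver and thymus, prepared 10x Genomics 3′ libraries and deposited the UMI counts of every gene in every barcode as whole numbers that had not been normalized. Per the submitters' processing notes the genome was mm10 and the tools Cell Ranger and Seurat 3.0, and the annotation is not given in the sources used here. The thymic matrix ended in stray lines that hold no entry, which were left out. Cells with 800 to 4000 genes and at most 6% mitochondrial UMIs were kept, and the study states fewer cells for both tissues than these limits leave. It also set a limit of 50% on ribosomal UMIs, which was run as an alternative. Seurat 5.3.0, run in R 4.3.3, clustered the libraries jointly (LogNormalize, 2000 variable genes, 30 principal components, resolution 0.6). The members and their family genes were taken out, which left 1992 variable genes. Clusters were named from fixed markers, with limits chosen after the clusters had been seen.

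CPM were computed from UMIs summed over the cells of a group, and no level was computed for a group with fewer than 20 cells in a library. A fold of at least 2 among genes with at least 50 UMIs counts as a call, and no test was made with 1 library per tissue. Lists were described by counts and medians, and the named list genes are among the 2 with the largest fold in each direction or, for the co-detected genes, among the 5 highest or lowest ratios; Ly6i in C8-like cells was chosen after its value was seen. Cells were thinned to 1500 UMIs (seed 11) for shares and co-detection, leaving out 7 thymic and 5 hepatic shallower cells. Scrublet, in scanpy 1.11.5, marked 2 thymic and 4 hepatic cells at its automatic threshold, which has not worked, so doublets were kept. An alternative removed the 164 thymic and 577 hepatic cells with the highest scores. The scripts were tested on simulated data. Python 3.11.15, numpy 2.4.6, scipy 1.17.1, pandas 2.3.3, Biopython 1.88 and matplotlib 3.10.9 were used. The members and lists were chosen with earlier results of these data known.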

Additional observations from a re-analysis of the deposited data

Results flagged for a closer look

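The liver to thymus ratio of Ly6a had different directions in different groups of cells. It was 0.337 (0.245 to 0.468) in C3-like cells and 0.114 (0.0999 to 0.130) in C6-like cells, and 9.49 (5.77 to 15.5) in the cell cycle gene cluster. The intervals cover counting error only, and the difference between the groups was not tested. The cell cycle gene cluster was named by cell cycle genes, so its thymic and hepatic cells may be of different types.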

How the results depend on the processing

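With 1 library per tissue, no library could be left out. No paired analysis was possible because each tissue has 1 library. Of 197 settings of ratios and co-detection, 167 stayed within the counting interval of the reported value, 28 left it and 2 others, with intervals clear of 1, turned. Among the 28 were 2 values of Thy1 below 1, whose reported ratio of 1.02 had an interval that held 1. Of 606 settings of levels and of co-detection within groups, 488 stayed and 118 left it. For the values that left it or turned, the cause was not tested.

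When totals left out mitochondrial and ribosomal-protein genes, the liver to thymus ratio was 1.71 for Ly6a, 11.3 for Ly6c2, 0.972 for Ly6e (turned from 1.08) and 0.916 for Thy1, and the Ly6c2 ratio of hepatic C3-like to C5-like cells was 16.1. The mean of the cells' own CPM gave liver to thymus ratios of 1.54 for Ly6a, 0.737 for Ly6c1, 9.60 for Ly6c2, 1.04 for Ly6e, 0.221 for Ly6d and 0.929 for Thy1, and a minimum of 500 genes gave 0.158 for Ly6d. Leaving out the B cell gene cluster, chosen after seeing the data, gave 0.0215 for Ly6d. At resolution 0.8, the hepatic C4-like to C5-like ratio was 12.4 for Ly6a and 3.93 for Ly6c2, and the Ly6c2 ratio to C5-like cells was 8.37 in C3-like and 4.18 in C7-like cells. With the family genes kept among the variable genes, the Ly6c2 ratio of C3-like to C5-like cells was 14.2. With each library clustered alone, the Ly6c2 ratio to C5-like cells was 17.9 in C3-like, 6.86 in C4-like and 10.1 in C7-like cells, and the S1pr1 cluster had no hepatic group. Without the highest Scrublet scores, the Ly6c2 ratio of hepatic C3-like cells was 15.3 to C5-like, 32.9 to C6-like and 1.66 to thymic C3-like cells, that of C4-like to C5-like cells was 6.06, and the Ly6a and Ly6c2 co-detection ratio in hepatic C3-like cells was 1.52. With the expected number summed over groups, the co-detection ratio over all hepatic cells was 1.05 for Ly6a with Ly6c2 and 1.03 for Ly6a with Thy1, and over all thymic cells 1.02 for Ly6c2 with Thy1 (turned from 0.614). Thinning to 2000 UMIs gave 1.40 for Ly6a with Ly6c2 in the liver.

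Depth limits the sparse genes most. Ly6c1 in thymic C3-like cells, Ly6c2 in thymic C6-like cells and Ly6d in hepatic γδ T cells rest on few UMIs, so their levels are known only within wide intervals.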
